A study of Mus musculus with 12 samples.

Results

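Hormones leave pituitary cells by regulated exocytosis. A granule is brought to the plasma membrane by Rab GTPases and their effectors, primed by Munc13 and CAPS proteins, and fused by SNARE proteins, which zip a vesicle protein (a synaptobrevin or VAMP) to partners on the target membrane (a syntaxin and a SNAP25 family protein). Synaptotagmins sense the calcium that triggers release, complexins hold or promote the last step, and the ATPase NSF with its SNAP adaptors takes the spent complex apart. The genes of this machinery were compared between the pituitaries of pregnant and virgin mice. They were chosen by a rule on gene names, with earlier results of these data known. It took every gene whose symbol on the array begins like a synaptotagmin, synaptotagmin-like, syntaxin, syntaxin-binding, VAMP, SNAP, complexin, Munc13, Rab3, Rab27, RIM or CAPS gene, together with Napa, Napb and Nsf. The rule found 92 genes, read by 170 of the 45281 probes. Of these, 67 genes had at least 1 probe above background, 98 probes in all, out of 18626 such probes and 10802 named genes on the whole array.

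The arrays came from 2 groups of C57BL/6J females, which were assigned at 8 weeks of age either to mating or to remain virgin. The Pregnant group held 8 dams, mated with C57BL/6J males and taken at e15.5, and the Non-pregnant group held 4 virgins. The females came from 4 litters, so that dams and virgins included littermates, but the litter of each female is not stated and no fit could take it into account. The labels name no transgene or drug for either group. Each array held the RNA of 1 whole gland, so that the hormone cells of the anterior and intermediate lobes, the glia and nerve endings of the posterior lobe, vessels and blood were read together. In such a mixture fewer cells of a type and less RNA per cell cannot be told apart. Values are log2 intensities after background correction and quantile normalisation. A change is the mean of the pregnant glands minus that of the non-pregnant glands, with its standard error (SE), and is called when its size is 1.25-fold or more and its adjusted p is under 0.05 (limma, Benjamini-Hochberg over all 18626 probes). Where a gene has several probes, the brightest stands for it unless another is named. Probe levels are not compared between genes, because probes differ in how well they bind.

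The arrays detected 17217 to 18572 probes each. The median raw intensity was 151.1 to 179.6 in the pregnant arrays and 144.8 to 147.6 in the non-pregnant arrays, which differ before normalisation without overlap. Hormone genes marked the tissue as pituitary, with Gh, Prl, Pomc and Tshb detected on all 12 arrays. All 3 measured red cell genes of the 4 listed were called higher in the pregnant glands, and their mean deviation from the average of all arrays was -0.0016 to 1.95 on the pregnant arrays and -1.77 to -1.14 on the non-pregnant arrays. Of the other marker lists only the gonadotroph gene Lhb was called, lower in the pregnant glands (-0.91 ± 0.11, SE, adjusted p = 0.000513 by limma). The rest of the gonadotroph list did not share one direction. Fshb was higher in the mean (1.61 ± 0.48, adjusted p = 0.0945), Gnrhr was at -0.32 ± 0.14 and Nr5a1 at 0.06 ± 0.13. Gh (-0.28 ± 0.09, adjusted p = 0.107), Prl, Pomc and Tshb were not called. The part of blood or of the hormone cell types in the other results was not tested.

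Most of the exocytosis machinery differed little between pregnant and virgin glands. Of the 67 measured genes, 33 were higher in the mean and 34 lower, with a median log2 change of -0.01, beside -0.01 over all named genes. The change of 52 genes (77.6%) was within 0.25 log2 units of zero and that of 65 genes (97.0%) within 0.5, against 77.0% and 95.2% of all named genes. The 2 genes outside 0.5 were Syt5, higher, and Cplx2, lower. Called changes were found in 2 genes, Syt5 and Rab38, both higher in the pregnant glands, and in none that were lower. By probe this is 2 of 98 (2.04%) called higher, beside 1.22% of all probes called higher, and 0 of 98 called lower, beside 1.10% of all probes called lower. At an unadjusted p under 0.05, 11 of the 98 probes (11.2%) were higher, beside 8.28% of all probes, and 8 (8.16%) were lower, beside 8.68%. The members' shares thus lay near those of the array as a whole. Some 10 of the 67 genes were caught by the spelling of the rule only and belong to other families (Rab31 to Rab39b and Snap91). Without them 1 of 84 probes (1.19%) was called higher, and at an unadjusted p under 0.05 the shares were 10.7% higher and 7.14% lower.

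**Figure D1:**
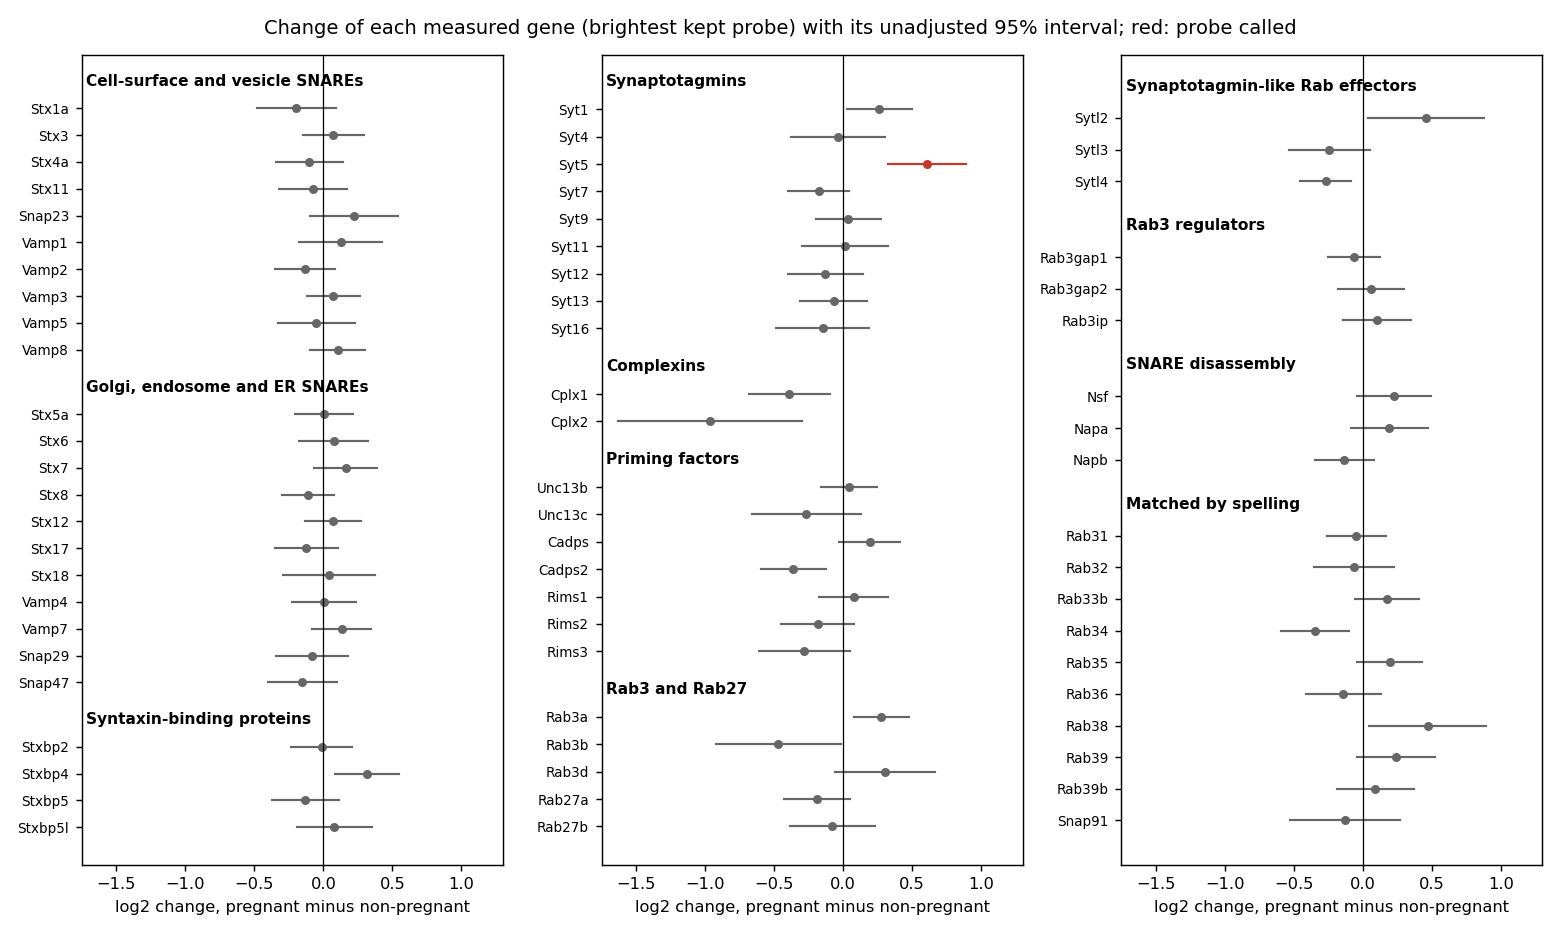
Log2 change (pregnant minus non-pregnant, horizontal axis) of each of the 67 measured genes by its brightest probe, as a point with its unadjusted 95% interval, grouped by role. Most intervals cross zero, 65 of 67 points lie within 0.5, Syt5 (red) is the called gene among these probes, and the lowest point is Cplx2 at -0.97.

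A small change is not the same as no change, and the 12 arrays set how closely a level could be held. The 95% interval of the change lay inside 1.25-fold either way in 14 of the 67 genes and inside 1 log2 unit in 66 of them, Cplx2 being the exception. A set of 22 core release genes with a probe was described more closely, of which 20 were above background. The interval lay inside 1.25-fold for 1 of the 20, and their bounds ran from -1.63 to 0.66. Snap25, the plasma membrane SNARE of neuroendocrine cells, and Unc13a, the Munc13-1 gene, were each read by 2 probes. These reached background on 0 of 12 arrays, so that no change can be given for either gene. Silent probes set no bound on the level of a gene, since 1 Pomc probe was detected on 0 of 12 arrays and another on 12. The other matched genes whose probes did not reach background on enough arrays were the SNAREs Stx2, Stx16 and Stx19, the syntaxin-binding Stxbp3 and Stxbp6, the synaptotagmins Syt2, Syt3, Syt6, Syt8, Syt10, Syt14, Syt15 and Syt17, the complexins Cplx3 and Cplx4, and Unc13d, Rims4, Rab3c, Sytl5, Rab3il1, Rab30, Rab33a and Rab37.

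Of the SNAREs that act at the cell surface, 10 of 13 genes were measured and none was called, with a median change of 0.01. At an unadjusted p under 0.05 stood 0 of 16 probes, beside 8.28% of all probes higher and 8.68% lower. Vamp2, the vesicle SNARE of regulated release, read 11.54, 11.66 and 11.94 (lowest, median and highest of 8) in pregnant glands and 11.88, 11.98, 11.83 and 11.65 in non-pregnant glands. The groups overlapped, with a change of -0.13 ± 0.10 (SE, adjusted p = 0.555) and a 95% interval of -0.35 to 0.09. Stx1a, its syntaxin partner on the plasma membrane, read 8.78, 9.10 and 9.46 in pregnant glands and 9.47, 9.29, 9.45 and 9.04 in non-pregnant glands. Its change of -0.20 ± 0.13 (adjusted p = 0.490) was likewise smaller than the spread allows to be called. Stx4a, a syntaxin of constitutive and insulin-responsive fusion, had a change of -0.10 ± 0.11 by its brightest probe and -0.17 ± 0.09 by the other. Stx3, a syntaxin of the apical membrane in epithelia, had 3 probes with changes of 0.07, -0.19 and -0.08. Snap23, the widely expressed relative of SNAP25, had the highest value of the class, 0.22 ± 0.15 (adjusted p = 0.488).

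The SNAREs of the Golgi, endosomes and endoplasmic reticulum, through which hormone and membrane proteins pass before and after release, were measured in 11 of 12 genes and none was called. All 11 lay within 0.25 of zero by their brightest probes. Dimmer probes of 3 genes supplied the 4 of 19 probes at an unadjusted p under 0.05. By direction 15.8% were higher and 5.26% lower, beside 8.28% and 8.68% of all probes. Vamp4, a trans-Golgi SNARE that also sits on immature secretory granules, had a change of 0.00 ± 0.11 by its brightest probe and 0.21 ± 0.09 (adjusted p = 0.260) by the other. Stx5a, the syntaxin of traffic into the Golgi, had 0.00 ± 0.10 and 0.33 ± 0.15 (adjusted p = 0.274). Stx8, a late endosomal syntaxin, was read by 5 probes that disagreed. The third probe by brightness gave -0.29 ± 0.13 (adjusted p = 0.275), and the dimmest gave 0.30 ± 0.10 (adjusted p = 0.143). The other three probes lay at -0.11, -0.09 and -0.16, so the direction for this gene is not settled by the array. Over the whole set 23 genes had several measured probes, of which 18 had all probes on one side of zero and 5 (Stx8, Cadps2, Stx3, Snap91 and Syt4) had probes on both.

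The syntaxin-binding proteins steer syntaxins into or away from the fusion complex, and 4 of 6 genes were measured with none called. Stxbp4, or Synip, a syntaxin 4 partner known from insulin-stimulated glucose transporter traffic, read 10.05, 10.36 and 10.47 in pregnant glands and 9.94, 10.11, 10.25 and 9.80 in non-pregnant glands. The change was 0.31 ± 0.11 (adjusted p = 0.144), and the lowest pregnant array fell among the non-pregnant ones. Its other two probes gave 0.00 and 0.17. Stxbp5, or tomosyn, which occupies SNAREs and restrains fusion, had -0.13 ± 0.11 and -0.24 ± 0.12 by its 2 probes (lowest adjusted p = 0.317). Stxbp2, or Munc18-2, of granule release in blood and epithelial cells, stood at -0.01 ± 0.10.

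Among the synaptotagmins 9 of 17 genes were measured and 1 was called. Syt5, a calcium-binding isoform of dense-core and synaptic vesicles whose name has been exchanged with synaptotagmin 9 in part of the literature, rose in the pregnant glands. It read 9.22, 9.31, 9.55, 9.68, 9.47, 9.13, 9.48 and 9.39 in pregnant glands 1 to 8 and 8.57, 8.67, 8.70 and 9.24 in non-pregnant glands 1 to 4. Non-pregnant glands 1 to 3 were below every pregnant gland, and non-pregnant gland 4 was above pregnant glands 1 and 6. Means were 9.40 ± 0.18 (SD, n = 8) in pregnant glands and 8.80 ± 0.30 (SD, n = 4) in non-pregnant glands, a change of 0.61 ± 0.13 (SE), or 1.52-fold, with an adjusted p of 0.0262 by limma. The call was lost when any of 4 arrays was left out, with an adjusted p of 0.110 without non-pregnant gland 1, 0.0770 without 2, 0.106 without 3 and 0.0525 without pregnant gland 7. The change itself stayed between 0.53 and 0.76 over the 12 fits with 1 array left out.

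The better known release isoforms did not pass the test. Syt1, the fast calcium sensor of synapses and many endocrine cells, read 12.51, 12.61 and 12.87 in pregnant glands and 12.47, 12.14, 12.67 and 12.26 in non-pregnant glands. Both of its probes gave a change of 0.26 ± 0.11 (adjusted p = 0.232 and 0.238), and the groups overlapped on each. Syt4, a dense-core vesicle isoform with weak calcium binding, had a change of -0.04 ± 0.16, and Syt7, the slow high-affinity sensor, -0.18 ± 0.10 (adjusted p = 0.402). Syt9, which shares the fast sensor role in some cells, had 0.04 ± 0.11. The other four measured isoforms (Syt11, Syt12, Syt13 and Syt16) lay between -0.15 and 0.01.

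Both measured complexins of the 4 genes matched were lower in the mean in pregnant glands, and neither was called. Complexins bind the zipped SNARE bundle and set whether it fuses on its own or on a calcium signal. Cplx2 read 7.99, 7.30, 6.34, 6.94, 7.87, 6.77, 6.57 and 6.95 in pregnant glands 1 to 8 and 8.94, 7.91, 7.98 and 7.38 in non-pregnant glands 1 to 4. Pregnant glands 1 and 5 read as high as the middle of the non-pregnant group, and the remaining 6 were below all non-pregnant glands. The change, -0.97 ± 0.31 (SE), was the largest in size of the 67 genes and had the largest SE, with a 95% interval of -1.63 to -0.30 and an adjusted p of 0.119. Cplx1 read 7.44, 7.79 and 8.23 in pregnant glands and 8.27, 8.49, 8.05 and 7.92 in non-pregnant glands, a change of -0.39 ± 0.14 (adjusted p = 0.160). Only pregnant gland 1 of the 8 was above the lowest non-pregnant gland by Cplx1.

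Complexin proteins are abundant in nerve terminals, and the whole gland includes the posterior lobe. Pituicyte and neuron marker genes were therefore set beside Cplx2. Their values are of RNA in the whole gland and do not measure its content of nerve endings. Of the pituicyte list 4 of 6 genes were measured, Gfap and Col25a1 being below background, and their mean deviation ran from -0.45 to 0.31 in pregnant glands and from -0.18 to 0.40 in non-pregnant glands. Of the neuron list 6 of 7 genes were measured, with -0.15 to 0.03 in pregnant glands and -0.03 to 0.21 in non-pregnant glands, and no gene of either list was called. These ranges do not show whether a marker follows Cplx2 from gland to gland. How far the amount of posterior lobe or nerve ending in each gland bears on the complexin values was not tested.

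**Figure D2:**
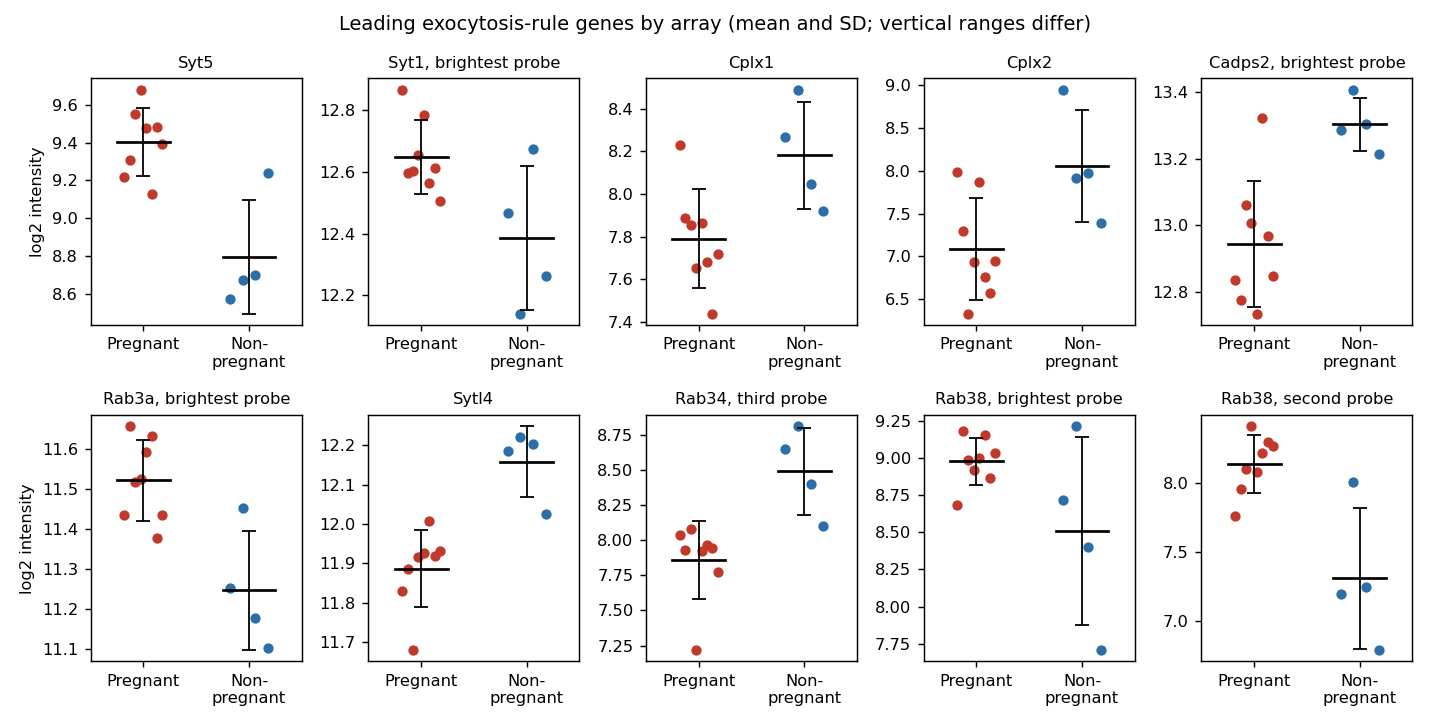
Log2 intensity (vertical axis, own range in each panel) of 10 probes from 9 genes in the 8 pregnant (red, left) and 4 non-pregnant (blue, right) glands, with the mean and SD in black. Syt5 and the second Rab38 probe are called higher, the groups do not overlap for Sytl4 and for the third Rab34 probe, and Cplx2 has the widest spread within both groups.

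The priming factors, which ready a docked granule for fusion, were measured in 7 of 10 genes with none called and a median change of -0.19. Cadps2, or CAPS2, a dense-core granule priming factor, read 12.84, 12.78, 13.06, 13.01, 12.73, 13.32, 12.97 and 12.85 in pregnant glands 1 to 8 and 13.29, 13.41, 13.31 and 13.22 in non-pregnant glands. Pregnant gland 6 was within the non-pregnant range and the other pregnant glands were below it. The change of -0.36 ± 0.11 (adjusted p = 0.0998) was 1.28-fold in size and passed the threshold when pregnant gland 6 was left out (-0.41, adjusted p = 0.0450). A second, dim Cadps2 probe gave 0.11 ± 0.20. The partner gene Cadps, or CAPS1, lay on the other side of zero at 0.19 ± 0.10 (adjusted p = 0.371). Unc13b, or Munc13-2, was at 0.04 ± 0.10, and the active zone scaffolds Rims1 and Rims2, which tie Rab3 to Munc13, were at 0.07 ± 0.12 and -0.19 ± 0.12.

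The Rab GTPases that carry granules to the membrane were measured in 5 of 6 genes and none was called. Rab3a, the main Rab3 of neurons and endocrine granules, read 11.44, 11.66, 11.52, 11.53, 11.59, 11.63, 11.38 and 11.44 in pregnant glands 1 to 8 and 11.25, 11.45, 11.18 and 11.10 in non-pregnant glands. Non-pregnant gland 2 alone reached into the pregnant range. The change was 0.28 ± 0.09 (adjusted p = 0.141), with 0.13 ± 0.08 by the second probe. Rab3b, a relative described in rat anterior pituitary cells, stood on the other side of zero at -0.47 ± 0.21 (adjusted p = 0.275). Rab3d, the Rab3 of exocrine granules, had 11.37, 11.68 and 11.95 in pregnant glands and 11.07, 12.03, 11.18 and 11.10 in non-pregnant glands. Its non-pregnant gland 2 was above every pregnant gland and the other three were below all of them. Its change was 0.30 ± 0.17 (adjusted p = 0.390), and 0.53 without that array (adjusted p = 0.0571). Rab27a, which docks secretory granules and lysosome-related organelles, was at -0.19 ± 0.11 (adjusted p = 0.415), and Rab27b at -0.08 ± 0.14 from a probe detected on only 2 arrays of each group.

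The synaptotagmin-like proteins bind active Rab27 and link the granule to the membrane. Of these, 3 of 4 genes were measured and none was called. Sytl4, or granuphilin, which docks dense-core granules in hormone cells, read 11.83, 11.89, 11.68, 11.92, 11.93, 12.01, 11.92 and 11.93 in pregnant glands 1 to 8 and 12.19, 12.22, 12.20 and 12.03 in non-pregnant glands. The groups did not overlap, with pregnant gland 6 just under non-pregnant gland 4. Such separation was seen for 2 of the 98 probes (2.04%), beside 2.95% of all probes. The change of -0.27 ± 0.09 (adjusted p = 0.118) was 1.21-fold in size, under the 1.25-fold needed for a call. Sytl2, which serves the same role in epithelia and endocrine cells, was at 0.46 ± 0.20 (adjusted p = 0.248) and Sytl3 had 3 probes between -0.24 and -0.14.

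Regulators of the Rab3 cycle changed by -0.06 to 0.10 by their brightest probes, with 3 of 4 genes measured. At an unadjusted p under 0.05 stood 0 of 4 probes, beside 8.28% of all probes higher and 8.68% lower. So few probes cannot set this class apart from the array. Rab3gap1, the catalytic subunit of the Rab3 GTPase-activating complex, was at -0.06 ± 0.09 and Rab3ip, or Rabin8, an exchange factor of the related Rab8, at 0.10 ± 0.12. The disassembly genes were all measured and 0 of their 5 probes had an unadjusted p under 0.05, again too few to set against the whole array. Nsf, the ATPase that recycles SNAREs, read 12.27, 12.69 and 12.87 in pregnant glands and 12.25, 12.73, 12.40 and 12.28 in non-pregnant glands, a change of 0.23 ± 0.13 (adjusted p = 0.387). Its adaptor Napa, or alpha-SNAP, was at 0.19 ± 0.13, and Napb, or beta-SNAP of brain, at -0.13 ± 0.10.

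**Figure D3:**
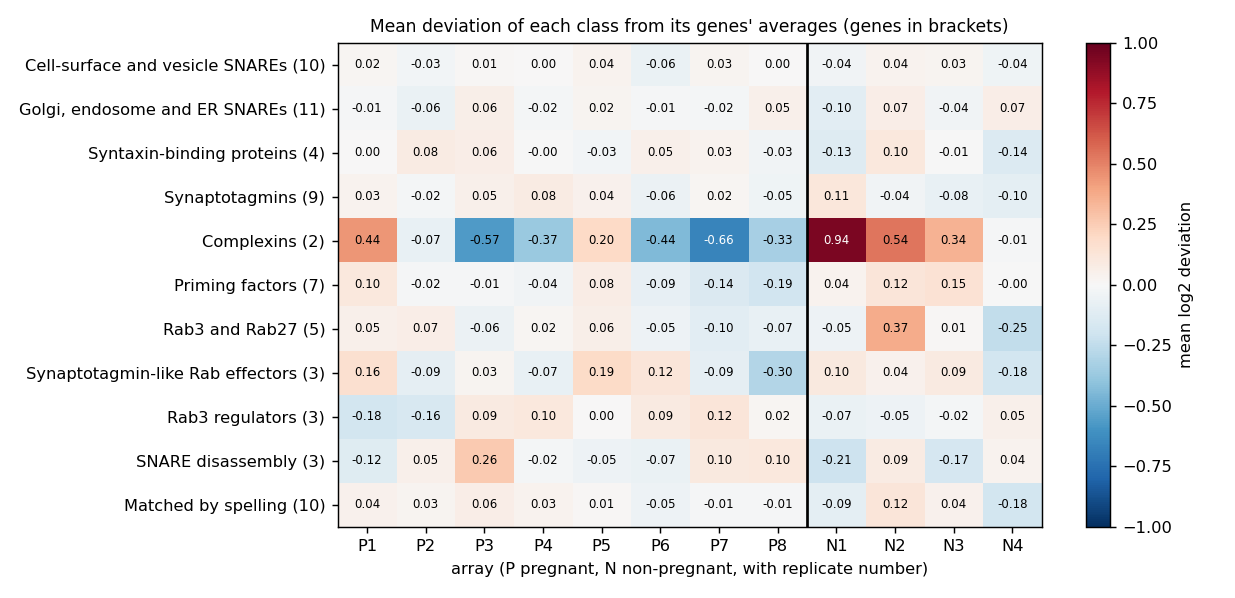
Mean deviation of each class of genes (rows, number of genes in brackets) from those genes' averages over the 12 arrays, in log2 units, for pregnant arrays P1 to P8 and non-pregnant arrays N1 to N4 (columns). The complexin row has the widest range, 0.44 in P1 and -0.66 in P7 against 0.94 in N1 and -0.01 in N4, and the Rab3 and Rab27 row reads 0.37 in N2 and -0.25 in N4.

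The classes were not shifted evenly from array to array. Averaged over all 67 genes, the arrays deviated by -0.04 to 0.04 in pregnant glands, against -0.07 (non-pregnant gland 4) to 0.10 (non-pregnant gland 2) in non-pregnant glands. The array furthest from the mean of a gene was non-pregnant gland 2 for 12 genes, gland 1 for 11 and gland 4 for 10. It was non-pregnant gland 3 for none of the 67. That mean is over 8 pregnant and 4 non-pregnant arrays, so any group difference by itself places the non-pregnant arrays further from it. With 4 glands in the Non-pregnant group, each of these arrays weighs on its group mean more than any pregnant one does.

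The 10 measured genes that entered by spelling alone belong to other families. Rab38, which with Rab32 sends cargo to melanosomes and other lysosome-related organelles, was called higher by its second probe only. That probe read 7.76, 7.96, 8.10, 8.41, 8.08, 8.22, 8.30 and 8.27 in pregnant glands 1 to 8 and 7.19, 8.01, 7.24 and 6.79 in non-pregnant glands. Non-pregnant gland 2 lay among the pregnant glands and the other three lay below them all. The change was 0.83 ± 0.18 (1.78-fold, adjusted p = 0.0242). The call was lost without non-pregnant gland 1 (adjusted p = 0.0895) or 3 (adjusted p = 0.0929), and the change was 0.66 without gland 4 and 1.07 without gland 2. The brighter probe read 8.69, 8.99 and 9.18 in pregnant glands and 8.72, 9.22, 8.40 and 7.70 in non-pregnant glands, with 0.47 ± 0.20 (adjusted p = 0.240), and the change was 0.20 without gland 4 and 0.70 without gland 2.

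Rab34, a Golgi GTPase that positions lysosomes and serves cilium formation, was lower in the mean by all 3 of its probes. The third read 8.04, 7.93, 8.08, 7.22, 7.93, 7.96, 7.95 and 7.77 in pregnant glands 1 to 8 and 8.65, 8.81, 8.40 and 8.10 in non-pregnant glands. The groups did not overlap, by a margin of pregnant gland 3 below non-pregnant gland 4, and the change of -0.63 ± 0.16 narrowly missed the threshold (adjusted p = 0.0525). It passed without pregnant gland 4 (-0.54, adjusted p = 0.0444) and without non-pregnant gland 4 (-0.76, adjusted p = 0.0175). The other probes gave -0.35 ± 0.11 (adjusted p = 0.126) and -0.20 ± 0.11. Of the remaining 8 genes none was called, and their brightest probes lay between -0.14 and 0.24.

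**Figure D4:**
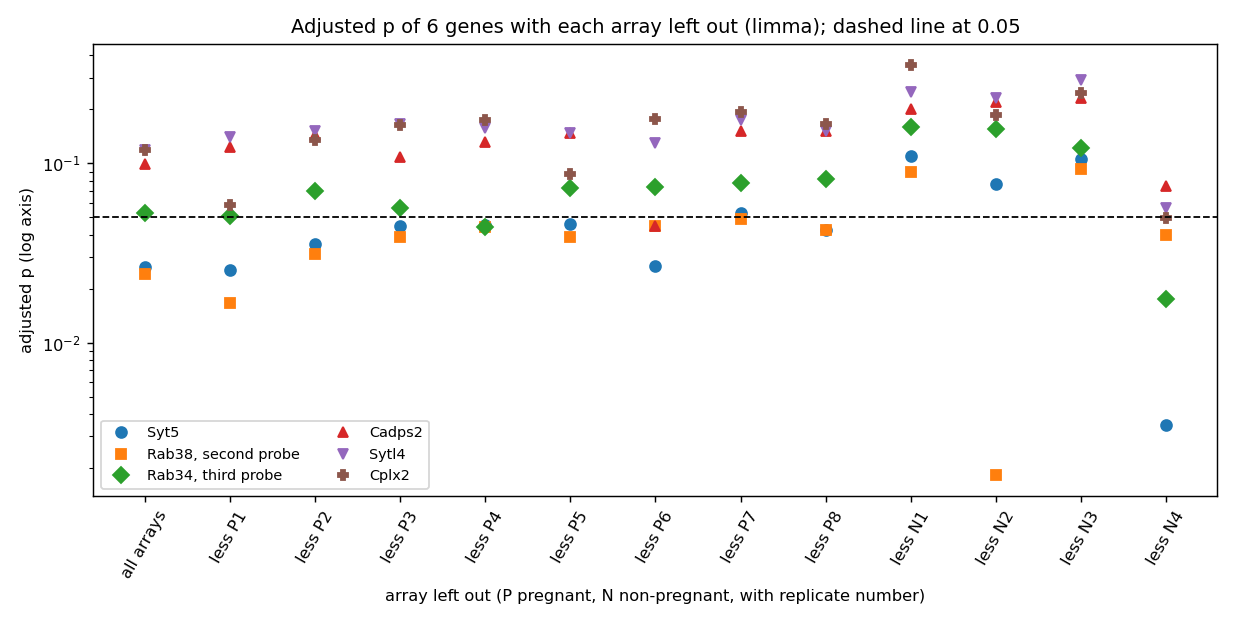
Adjusted p (log axis) of 6 probes with all arrays and with each array left out in turn, P for pregnant and N for non-pregnant, and a dashed line at 0.05. Syt5 crosses above the line without P7, N1, N2 or N3 and the second Rab38 probe without N1 or N3, while the third Rab34 probe drops below it without P4 or N4, Cadps2 without P6 and Cplx2 without N4.

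Leaving out 1 array ended or made a call for 5 of the 6 genes nearest the threshold, and for Sytl4 it did neither. Syt5 was called in 8 of the 12 fits with 1 array left out and the second Rab38 probe in 10. Rab34 was called in 2 of the 12 and Cadps2 and Cplx2 in 1 each. Without non-pregnant gland 4 the Cplx2 change was -1.19 (adjusted p = 0.0493).

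A further 98 genes of vesicle release that the name rule leaves out were listed by role, namely the exocyst, vesicle membrane proteins, active zone scaffolds, Rab effectors, calcium-dependent cofactors, other SNAREs and granule biogenesis. Of these 74 were measured by 118 probes and none was called in either direction by limma (0 of 118 probes, beside 1.22% higher and 1.10% lower over all probes). At an unadjusted p under 0.05, 10 of the 118 probes (8.47%) were higher, beside 8.28% of all probes, and 5 (4.24%) were lower, beside 8.68%. The median change was 0.02. The list of other SNAREs and their partners, with all 17 genes measured, had a median of 0.07. Its mean deviation was -0.033 to 0.095 in pregnant glands and -0.083 to -0.050 in non-pregnant glands. No other of these lists kept the groups apart, and it was singled out after its values were seen. All 12 exocyst genes, whose complex tethers vesicles to the membrane, were measured with a median of -0.08, and Exoc2, singled out here after its values were seen, was the only one of the 118 probes (0.847%, beside 2.95% of all probes) whose groups did not overlap, at -0.21 ± 0.09 (adjusted p = 0.25).

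The 4 genes of smallest p were each higher in the mean in pregnant glands. S100a10, the annexin A2 partner in calcium-dependent membrane binding, read 11.19, 11.55 and 11.86 in pregnant glands and 10.73, 10.91, 11.06 and 11.30 in non-pregnant glands, with 0.54 ± 0.14 (adjusted p = 0.0615). Eipr1, a dense-core granule biogenesis factor that works with the EARP complex, had 0.48 ± 0.13 (adjusted p = 0.0639) by a dim probe and 0.08 ± 0.10 by the brightest of its 4. Arfip2, or arfaptin 2, a trans-Golgi protein, had 0.45 ± 0.14 (adjusted p = 0.0968). Gosr2, a Golgi SNARE, had 0.50 ± 0.17 (adjusted p = 0.143) by its dimmest probe and 0.11 to 0.24 by the other three. For Eipr1 and Gosr2 the low p thus came from 1 probe of 4.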

How the data were processed

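Each of the 12 MouseWG-6 v2.0 bead arrays was hybridised with RNA of 1 whole pituitary. The authors deposited raw linear intensity values, which are not background-corrected. Beside each intensity stands a deposited detection p-value, in which the scanner software sets the probe against its negative controls. A second deposited table, of intensity values that the authors processed with lumi (no version stated), served as an alternative only.

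Background was corrected with normexp (limma 3.58.1, R 4.3.3) from the detection p-values, with 16 added to each value. Arrays were then quantile-normalised and log2-transformed. Probes with a detection p under 0.05 on at least 4 of 12 arrays were kept. lmFit and eBayes compared the groups, two-sided, as the methods of the study do. The fit was tested on simulated data. Intervals are at 95% and unadjusted. The array annotation gives a single symbol to 34885 probes, several to 18 and no symbol to 10378. The females came from 4 litters, but neither the litter of each animal nor the slide of each array is stated, so litter could not be fitted and the p-values treat the animals as independent. The number of arrays limits the precision.

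Genes named in the text are those called, those with groups that do not overlap, the core release genes, the 2 of smallest p in each class, those called with 1 array left out, those with probes that disagree, and 4 further release genes of smallest p. The members and all lists were chosen with earlier results of these data known. Alternatives were other background, normalisation, filter, variance and probe settings, a block and each array left out. No genome was used, and no coordinates or sequences are given.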

Additional observations from a re-analysis of the deposited data

Results flagged for a closer look

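Within-group spread was examined for 78 groups of arrays, and 3 held an array far from the rest of its group. Chance alone gives about 1 in 20. Stxbp4 read 10.05 in pregnant gland 4 against 10.29 to 10.47 in the other pregnant glands. The third Rab34 probe read 7.218 in the same gland against 7.772 to 8.082 in the other pregnant glands. Rab3d read 12.03 in non-pregnant gland 2 against 11.07 to 11.18 in the other non-pregnant glands. Causes were not tested.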

How the results depend on the processing

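With the groups of 8 and 4 arrays, a single array could end or create a call. The members called lower (0) became 2 without background correction, 2 in the authors' processed table, 1 with detection on all arrays, 2 with trend and robust eBayes, 3 with array weights and 1 with the probes of a gene averaged. The members called higher (2) became 1 with no detection filter and 1 with probes averaged. Rab38 was then the lost call, with an adjusted p of 0.0564 for its second probe without the filter. The other release genes called (0) became 1, 1, 1, 2 and 5 without background correction, in the authors' table, with detection on all arrays, with trend and robust eBayes and with array weights. The genes called lower were Rab34 and Cadps2, Cplx2 as well with array weights (-1.08, adjusted p = 0.0292), and Rab34 alone with detection on all arrays or probes averaged. Over all probes 742 were higher and 834 lower with array weights, and 332 and 308 with trend and robust eBayes, against 227 and 204. These counts were 268 and 252 without background correction, 271 and 253 in the authors' table, and 232 and 211 with detection on all arrays. With no detection filter they were 186 and 159, and with probes averaged 183 and 189. The member counts thus moved along with those of the whole array in most settings.

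With each array left out in turn, members called higher ranged from 0 to 2 (0 without non-pregnant gland 1 or 3, 1 without non-pregnant gland 2 or pregnant gland 7), members called lower from 0 to 2 (2 without non-pregnant gland 4), and other release genes called from 0 to 5 (5 without non-pregnant gland 4). Over all probes 89 to 536 were called higher and 60 to 597 lower, lowest without non-pregnant gland 3 and highest without non-pregnant gland 4.

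With the replicate number as a replicate block, 0 members were called higher, none lower and 1 of the other release genes, with 86 probes higher and 41 lower over the whole array. In that fit a pregnant gland whose number had no non-pregnant match added nothing to the change. It thus compared 4 pregnant with 4 non-pregnant glands, and its counts also reflect the fewer glands. Syt5 then had 0.64 (adjusted p = 0.0768) and Rab38 0.75 (adjusted p = 0.225). Deviations of same-numbered arrays correlated at 0.16, 0.06, 0.01 and 0.20, and 1 of 4 non-pregnant arrays correlated best with its own number. The number was therefore not taken to pair the arrays, which does not show whether they share litters.

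Changes near zero reversed in sign. Stx3 was -0.066 with probes averaged and ranged from -0.034 to 0.16 with an array left out. Syt4 was 0.0079 with array weights, 0.0102 with median scaling and 0.0404 with probes averaged, and ranged from -0.17 to 0.0577. Vamp4 ranged from -0.0607 to 0.0828, Unc13b from -0.0494 to 0.11 and Rab27b from -0.17 to 0.0195. The cause was not tested. Syt5 and Rab38 were each called in 17 of the 22 alternatives and left-out arrays, Rab34 in 8, Cadps2 in 5 and Cplx2 in 2. A block for slides was not run, because the columns name no slide. For genes below background no change is known, and their probes set no bound on the level.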
